A study of Mus musculus with 3 samples.

Results

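*Cdkn1b*, the gene of the cell cycle inhibitor p27, was measured in cells lavaged from the lungs of mice that had received saline, crystalline silica or titanium dioxide (TiO2). It was 1 of 975 cDNA clones on the arrays. The clone, AI843786, was taken by its identifier, which RefSeq (mouse assembly GRCm38.p6) lists among the synonyms of *Cdkn1b* (gene ID 12576). Its 6 replicate spots, of 5862 spots in all, had a value on each of the 3 arrays. The gene was chosen by its differences between the saline array and both particle arrays, seen earlier in these data, so its values are given as a description, with no test.

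Each array compared amplified RNA of 1 lavage preparation with a commercial pool of mouse RNA, the Universal Mouse Reference, on 2 colour channels. All mice were instilled through the nose with 30 µl at 6 weeks of age and lavaged at 14 weeks. The saline group received the vehicle alone, the silica group 1 mg of crystalline silica in saline and the TiO2 group 500 µg of TiO2 in saline, so the particle doses were not matched. Crystalline silica is a mineral dust known for causing lung fibrosis, and TiO2 serves in many such studies as a dust of low toxicity. The strain, sex and number of mice per lavage were not given in the sources used here. There was 1 array per group, and the differences therefore have no replicate check.

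p27 belongs to the Cip/Kip family of inhibitors. It binds complexes of cyclins with cyclin-dependent kinases, above all cyclin E with Cdk2, and holds cells in G1 before DNA synthesis. FOXO transcription factors raise its transcription in quiescent cells, and the ubiquitin ligase that contains Skp2 marks the protein for destruction when cells enter the cycle. Much of its control is thus at the level of the protein, which RNA arrays do not measure. Alveolar macrophages, the main cell of a normal lavage, can renew themselves in the lung by slow division, whereas an inflamed lung also yields neutrophils and recruited monocytes.

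The values are log2 ratios of the 2 channels, and the sources used here do not say which channel is the numerator. Here "above" and "below" describe the ratio as deposited. If lavage RNA was the numerator, a higher ratio means more *Cdkn1b* RNA relative to the reference pool, and if it was the denominator, less. In mixed lavage cells, a different number of cells of a type and a different amount of RNA per cell cannot be told apart. No gene other than *Cdkn1b* itself among the 47 genes of 5 lists (CDK inhibitors, kinases and cyclins bound by p27, its turnover, its regulators, cell division) was matched to a clone. Of 41 marker genes of macrophages, neutrophils, eosinophils, T cells, B cells and epithelium, 0 were matched. All lists were compared by gene symbol alone, so a gene listed under another name, such as Kpc1 in the turnover list, could not be matched. Of the 975 clones, 16 were matched to a gene and 959 were not and are unnamed, so genes of these lists may lie among them. The labelled cell type could not be checked against its markers.

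On the saline array the spots of *Cdkn1b* lay well below the centre of the array. The deposited log2 ratios of the 6 spots were -0.751, -0.731, -0.725, -0.720, -0.717 and -0.701. Their mean of -0.72 corresponds to a ratio of 0.605 between the channels. On the silica array the spots read 0.018, 0.030, 0.064, 0.065, 0.093 and 0.139, and on the TiO2 array 0.018, 0.023, 0.025, 0.036, 0.042 and 0.058. The channels were thus nearly equal on both particle arrays, with mean ratios of 1.05 on silica and 1.02 on TiO2. Values are listed in ascending order on every array, so a spot of one array has no partner on another.

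The arrays were then set on a common zero by subtracting from each its median over the 662 clones with a value on all 3 arrays. On saline, *Cdkn1b* then had a centred level of -0.99 ± 0.017 (SD, n = 6 spots). The silica level was -0.018 ± 0.044 (SD, n = 6 spots), and that of TiO2 was -0.0099 ± 0.015 (SD, n = 6 spots). Such an SD holds the technical scatter of spots on 1 array, and no variation between animals. The saline level was the lowest, and no saline spot came near those of either particle array. The spots of silica and TiO2 overlapped. Silica was slightly below TiO2 after centring, while the deposited means had it above, at 0.068 against 0.034.

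**Figure D1:**
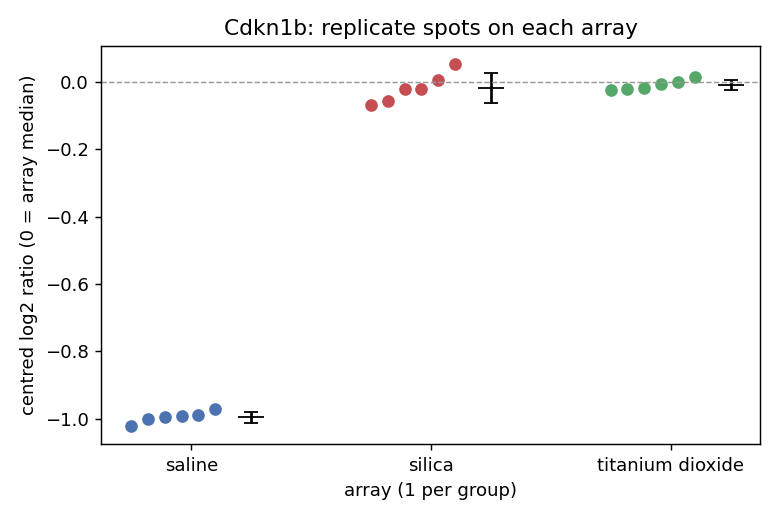
Centred log2 ratio (y axis, 0 is the array's median) of the 6 replicate spots of *Cdkn1b* on the array of each group (x axis), in ascending order within an array, with the mean and SD over spots in black. The saline spots lie near -0.99, and the spots of both particle arrays lie close to 0 and overlap.

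The first comparison sets silica against saline. The ratio of *Cdkn1b* was 0.98 above saline on the silica array (SE over spots 0.019), a 1.97-fold difference on the ratio scale. The lowest silica spot lay 0.90 above the highest saline spot. Separation of this kind was common: the silica spots lay wholly above the saline spots in 231 of the 566 clones whose spots were all measured on both (40.8%). At least 2-fold differences were found in 201 of 662 clones (30.4%) in either direction, and with silica above in 18 (2.72%). This balance turned with centring on the mean, whose counts are given with the alternatives. *Cdkn1b* was just under that size. Its difference was the 20th highest of 662, with its neighbours in that order at 1.00 and 0.96.

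The second comparison sets TiO2 against saline. *Cdkn1b* was 0.98 above saline on the TiO2 array (SE over spots 0.0091), or 1.98-fold. The lowest TiO2 spot lay 0.95 above the highest saline spot, and the TiO2 spots lay wholly above the saline spots in 225 of 565 clones (39.8%). The difference ranked 23rd of 662. In this comparison 205 clones (31.0%) were at least 2-fold apart, 20 of them (3.02%) with TiO2 above. Both comparisons use the same saline array, so a fault of that array would enter both, and they are not independent of each other.

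**Figure D2:**
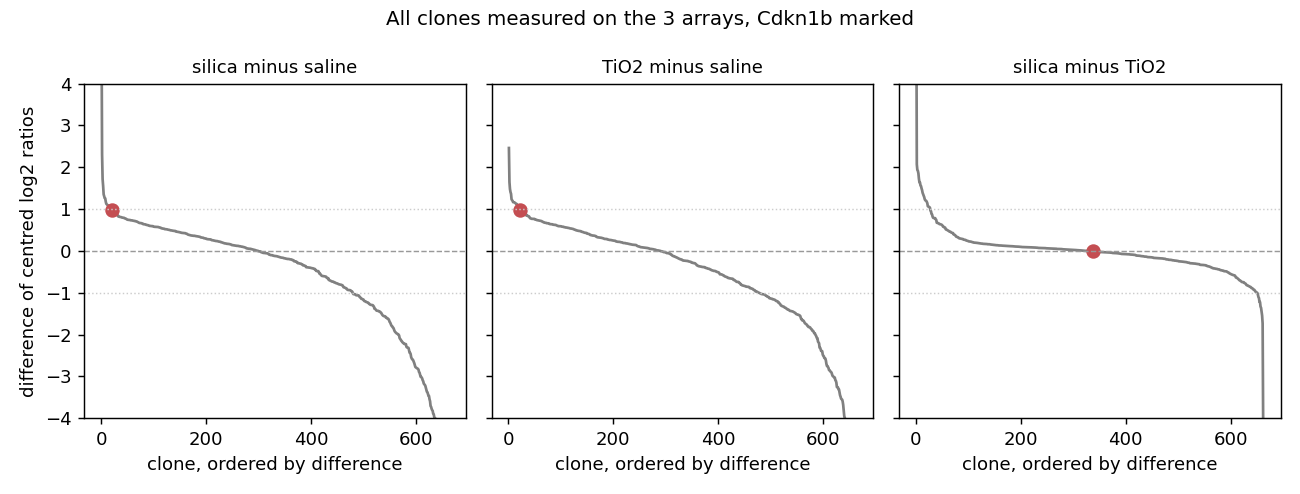
Differences of centred log2 ratios (y axis) for the 662 clones measured on all 3 arrays, ordered from the highest to the lowest (x axis), with *Cdkn1b* as a red point and 2-fold differences as dotted lines. *Cdkn1b* stands near the upper end in both saline comparisons, at 0.98, and in the middle between silica and TiO2, at -0.0080. The y axis ends at 4 and -4, which leaves 27, 21 and 2 clones out of view from left to right.

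Centring the arrays did not bring the median clone to a difference of 0. The median difference over all 662 clones was -0.12 for silica minus saline and -0.22 for TiO2 minus saline. Relative to that median, *Cdkn1b* lay 1.10 higher on silica (2.14-fold) and 1.20 higher on TiO2 (2.30-fold). Counted in the same way, 28 clones (4.23%) lay at least 2-fold above the median for silica and 41 (6.19%) for TiO2, *Cdkn1b* among them in both. This reference was chosen after seeing the data, and without it the gene was just under 2-fold in both comparisons.

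The third comparison sets the particles against each other, at unmatched doses. *Cdkn1b* differed by -0.0080 between silica and TiO2 (SE over spots 0.019), less than the spread over spots. Of the other clones, 644 of 661 were further apart between these arrays than *Cdkn1b*, and 17 were closer. That count was made with centring on the median only. Over the 9 alternatives the *Cdkn1b* difference ran from -0.023 to 0.049. At least 2-fold differences were found in 39 of 662 clones (5.89%), and the spot sets did not overlap in 343 of 653 (52.5%). With 1 array each, this small difference does not show that the particles act alike on the gene.

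The place of *Cdkn1b* within each array does not depend on the array's scale. On the saline array 59 of the 661 other clones had a lower ratio, which made it the 60th lowest of 662. On the silica array 312 clones were lower, and on the TiO2 array 325 were lower, so that it stood close to the middle of both. The spread of the arrays differed: their median absolute deviations over centred clones were 0.72 for saline, 0.24 for silica and 0.25 for TiO2. In units of its own array's deviation, *Cdkn1b* lay at -1.37 on saline, -0.076 on silica and -0.040 on TiO2. The saline array also had fewer measured spots, 63.4% of 5862 against 87.7% on silica and 81.7% on TiO2. The part of these array differences in the *Cdkn1b* difference was not tested.

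The spots of *Cdkn1b* had little scatter on saline and TiO2, and a scatter closer to that of the median clone on silica. Among the 565 clones with every spot measured on all 3 arrays, 18 had a smaller spot SD than *Cdkn1b* on saline, 191 had one on silica and 29 on TiO2. The median spot SD of these clones was 0.072, 0.057 and 0.048. The precision within an array was therefore high for this clone on saline and TiO2 and less unusual on silica. The number of arrays limits what can be said about the groups.

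Clones that were low on the saline array were mostly low on the particle arrays too. Of the 59 clones with a saline ratio below that of *Cdkn1b*, 36 (61.0%) were still at least 2-fold below the centre on silica and 41 (69.5%) on TiO2. Over all 662 clones, 64 were that low on silica and 75 on TiO2. Single clones of the 59 differed from their own saline value, above it in 42 (71.2%) on silica and in 32 (54.2%) on TiO2. The 59 were picked by a low saline value, and of all 662 clones 299 were above saline on silica and 289 on TiO2. Over the 59, the median difference per clone was 0.25 for silica and 0.27 for TiO2, against 0.98 in both for *Cdkn1b*. The gene was chosen by these differences, so its place among the 59 is a description only. *Cdkn1b* had a higher level than 54 of the 59 on silica and than 54 on TiO2, and 4 of the 59 exceeded it on both. A larger difference than that of *Cdkn1b* was found in 11 of the 59 for silica and in 11 for TiO2.

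Many clones near the centre of both particle arrays were spread out on the saline array. Within 0.25 of the centre on both silica and TiO2 were 264 of 662 clones (39.9%), *Cdkn1b* included. Their saline levels ran from -1.30 to 7.86, with a median of -0.25 and quartiles of -0.58 and 0.15. *Cdkn1b* was the 6th lowest of them on saline. It thus stood at the low end of a large group of clones that shared its particle levels, and not apart from it.

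**Figure D3:**
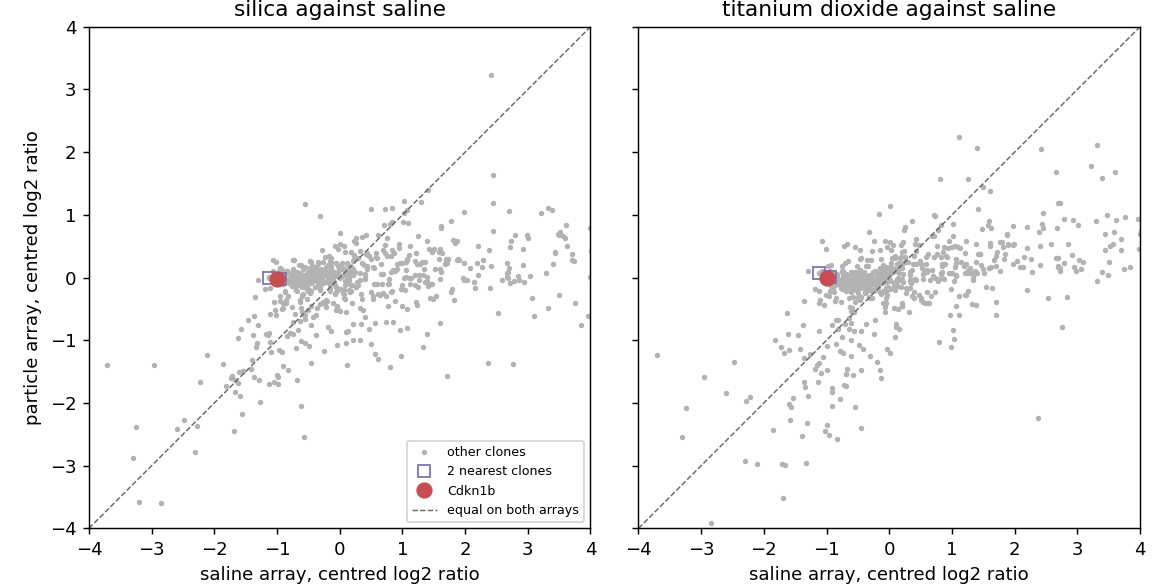
Centred log2 ratio of each clone on the saline array (x axes) against the silica array (left, y axis) and the TiO2 array (right, y axis), with *Cdkn1b* in red and its 2 nearest clones as open squares. *Cdkn1b* sits near -0.99 on saline and close to 0 on both particle arrays, at the left end of a flat band of clones. The axes end at 4 and -4, which leaves 32 clones out of view on the left and 33 on the right.

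The clones with the most similar pattern were found by Euclidean distance over the 3 centred levels, among 564 clones with every spot measured. The nearest, AI839579, lay at a distance of 0.050 (log2 units). It read -0.95 ± 0.023 on saline, -0.027 ± 0.036 on silica and 0.0068 ± 0.026 on TiO2 (SD, n = 6 spots each). The next, AI838959, lay at 0.15 and read -1.13 ± 0.019, -0.011 ± 0.033 and 0.069 ± 0.023 (SD, n = 6 spots each). Neither clone was matched to a gene. In all, 18 of the 564 (3.19%) lay within 0.25, 93 (16.5%) within 0.50 and 235 (41.7%) within 1. A clone at the wider distances can differ much less from saline than *Cdkn1b*. The 18 within 0.25 are therefore the closer count of clones that shared the pattern.

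Of the 564 clones compared, 9 were matched to a gene. The nearest of these 9 was *Col16a1*, which encodes a collagen chain, the 107th closest of 564 at a distance of 0.56. Its spots averaged -0.48 ± 0.035 on saline, -0.20 ± 0.065 on silica and -0.11 ± 0.039 on TiO2 (SD, n = 6 spots each). *S1pr1*, a receptor for sphingosine 1-phosphate, followed at 0.62, the 123rd closest. It read -0.39 ± 0.056 on saline, -0.16 ± 0.028 on silica and 0.023 ± 0.040 on TiO2 (SD, n = 6 spots each). Both were below the centre on saline, less so than *Cdkn1b*, and their differences from saline were smaller, at 0.28 and 0.24 for silica and 0.37 and 0.41 for TiO2.

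The size of the *Cdkn1b* difference depended on how the arrays were scaled, while its sign did not. Silica minus saline ranged from 0.52 to 1.57 over 9 alternatives and TiO2 minus saline from 0.54 to 1.56, and all were above 0. The alternative over clones measured on the 2 arrays compared uses the same 662 clones here and repeats the main result. With the arrays brought to a common median absolute deviation, the differences were 0.52 and 0.54, and the ranks 75th and 74th. After removal of the trend of the difference on the mean ratio they were 0.56 and 0.58, and the ranks 91st and 105th. The share of clones at least 2-fold higher on the particle array was then 5.59% for silica and 7.55% for TiO2. Quantile normalization, which uses ranks within an array, gave 1.05 and 1.07, both past 2-fold, at ranks 61st and 47th. Under it 9.82% of clones were at least 2-fold higher on silica and 9.37% on TiO2. Centring on the mean gave 1.57 and 1.56 and put 24.8% and 22.5% of clones past 2-fold in the same direction. It moved the median of all differences to 0.47 and 0.36. A mean follows extreme values more than a median does. The lowest differences were -15.2 for silica and -15.3 for TiO2, against -4.79 and -4.34 among clones with every spot measured. The part of such clones in the shift was not tested. The balance of clones at least 2-fold apart depended on these settings. For silica minus saline, 18 clones were above and 183 below with centring on the median, 164 and 120 with centring on the mean, 65 and 85 under quantile normalization, and 37 and 53 after trend removal. For TiO2 minus saline the numbers were 20 and 185, 149 and 106, 62 and 61, and 50 and 36 in the same order.

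**Figure D4:**
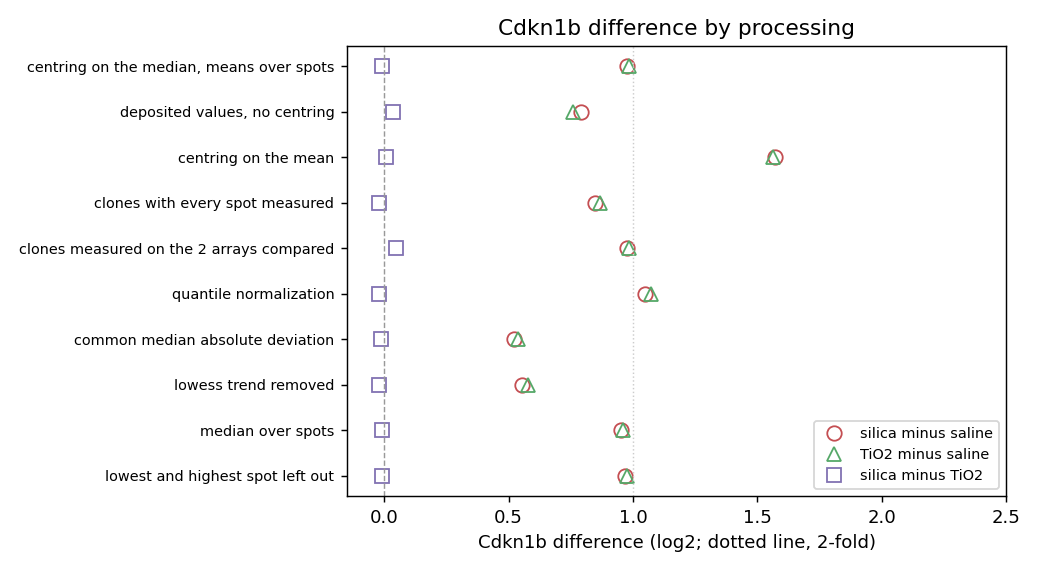
Difference of *Cdkn1b* in log2 units (x axis) under the main processing (top row) and each of 9 alternatives (y axis), for silica minus saline (circles), TiO2 minus saline (triangles) and silica minus TiO2 (squares). The saline comparisons stay between 0.52 and 1.57 and cross the dotted 2-fold line only with quantile normalization and centring on the mean, while silica minus TiO2 stays between -0.023 and 0.049.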

How the data were processed

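Per the labels, lavage RNA was extracted on spin columns and amplified, and cDNA of the reference pool carried an Alexa Fluor dye. The authors deposited 1 log2 ratio per spot and array. The base was inferred from the highest values, which lie just under 16 on each array. The scanner, background correction, normalization and numerator of the ratio were not given in the sources used here. Column medians of the deposited values were 0.16 (saline), 0.13 (silica) and 0.12 (TiO2).

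Spots of a clone were averaged per array. The medians then subtracted were 0.27, 0.086 and 0.044. A difference has as its error the SE from both arrays' spot SDs. No p-value was computed, and 2-fold means an absolute log2 difference of at least 1. The calculation was checked on simulated arrays, all built from the silica levels with every spot measured. That check does not cover the wider spread and the missing spots of the saline array. The gene, lists and alternatives were chosen with earlier results of these data known. Beside *Cdkn1b*, the rule named the 2 nearest clones and the 2 nearest with a symbol. The counts around the centre of the particle arrays, and the values relative to the median difference, were chosen after seeing the data. Python 3.11.15, pandas 2.3.3 and statsmodels 0.14.6 (lowess, span 0.4) were used.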

Additional observations from a re-analysis of the deposited data

How the results depend on the processing

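*Cdkn1b* stayed above saline under all 9 alternatives, and its size moved by more than the spread over spots under most. Using the clones measured on the 2 arrays compared could not change the saline comparisons. All 662 clones measured on saline had a value on all 3 arrays, so that alternative repeats the main result there. Silica minus saline (0.98) was 0.79 without centring, 1.57 with centring on the mean, 0.85 over clones with every spot measured, 1.05 under quantile normalization, 0.52 on a common scale and 0.56 after trend removal. TiO2 minus saline (0.98) was 0.76, 1.56, 0.87, 1.07, 0.54 and 0.58 in the same order, and 0.96 with the median over spots. Silica minus TiO2 (-0.0080) was 0.049 over the 834 clones measured on both arrays and was above 0 in 3 of 9 alternatives. Without centring or with the mean, all clones shift alike and ranks stay. On the common scale the saline array is narrowed by construction. The cause was not tested for quantile normalization, trend removal or the choice of clones. The number of clones at least 2-fold apart was 201 for silica minus saline, with 90 after trend removal and 118 of the 565 clones with every spot measured. It was 205 for TiO2 minus saline, with 133 of those 565 clones, 123 under quantile normalization and 86 once the trend was removed. It was 39 for silica minus TiO2, with 80 under quantile normalization, 102 on the common scale and 128 over the 834 clones. No paired analysis was possible because there is a single array per group, for which leaving out a replicate is not possible either.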
